A study of Mus musculus with 6 samples.

Results

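To examine which transcripts of glucose use differed when the RNA-binding protein Ybx1 was deleted, 39 genes of glycolysis, lactate handling and the citric acid cycle were followed in the E13.5 mouse cortex. The genes were chosen by name as members of the pathway, and they were matched by gene symbol to the 17348 genes of the expression table. All 39 were found, and all 39 were among the 13340 genes that passed the filter on low counts. RNA sequencing had been done on 3 libraries labelled WT and 3 labelled cKO. The cKO embryos carried floxed Ybx1 alleles and the Nestin-Cre transgene, which deletes Ybx1 in neural progenitors and their progeny, in the cortex as well as in other parts of the nervous system. The WT libraries came from control littermates, which the methods call wild type and elsewhere describe as floxed without Cre. Blood, vessel and meningeal cells that remained on the dissected tissue were sequenced with the rest.

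Glycolysis splits glucose into pyruvate in the cytosol and yields a small amount of ATP without oxygen. Pyruvate is then either reduced to lactate, which leaves the cell through monocarboxylate transporters, or enters the mitochondrion, where pyruvate dehydrogenase turns it into acetyl-CoA for the citric acid cycle. Neural progenitors are known to rely strongly on glycolysis, and neurons to rely more on oxidation in mitochondria. Many genes of glycolysis are known targets of the hypoxia-inducible factors and of Myc, whose binding motifs share the letters ACGTG.

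The promoters of 4 members are printed because they hold the contrasting cases of the results, with the 2 lactate dehydrogenase genes beside the lactate exporter Slc16a3, which had the lowest p-value of the members, and Mdh2, a member whose genotypes did not overlap. Each sequence is the 250 bases before the RefSeq transcription start on the gene's own strand in GRCm38.p6, 5′ to 3′, and capitals mark ACGTG or its reverse complement CACGT, where overlapping matches form CACGTG. Ldha on the plus strand at chr7:46845554-46845803 is the first of its 2 annotated starts, Ldhb lies on the minus strand at chr6:142507958-142508207, Slc16a3 on the plus strand at chr11:120948817-120949066, and Mdh2 on the plus strand at chr5:135778399-135778648.
Ldha: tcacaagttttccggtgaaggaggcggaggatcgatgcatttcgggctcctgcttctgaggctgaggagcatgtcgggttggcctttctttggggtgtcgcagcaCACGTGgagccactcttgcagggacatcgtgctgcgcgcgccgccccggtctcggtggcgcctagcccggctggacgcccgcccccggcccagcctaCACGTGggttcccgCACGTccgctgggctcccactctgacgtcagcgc
Ldhb: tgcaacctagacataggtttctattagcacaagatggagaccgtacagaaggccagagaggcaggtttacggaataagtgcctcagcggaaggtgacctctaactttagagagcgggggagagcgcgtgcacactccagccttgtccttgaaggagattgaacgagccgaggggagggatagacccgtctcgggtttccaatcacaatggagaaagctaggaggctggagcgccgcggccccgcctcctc
Slc16a3: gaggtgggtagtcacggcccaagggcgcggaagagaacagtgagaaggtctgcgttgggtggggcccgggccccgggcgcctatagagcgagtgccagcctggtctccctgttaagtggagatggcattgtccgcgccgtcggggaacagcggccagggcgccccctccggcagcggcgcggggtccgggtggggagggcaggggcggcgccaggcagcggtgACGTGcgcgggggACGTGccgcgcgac
Mdh2: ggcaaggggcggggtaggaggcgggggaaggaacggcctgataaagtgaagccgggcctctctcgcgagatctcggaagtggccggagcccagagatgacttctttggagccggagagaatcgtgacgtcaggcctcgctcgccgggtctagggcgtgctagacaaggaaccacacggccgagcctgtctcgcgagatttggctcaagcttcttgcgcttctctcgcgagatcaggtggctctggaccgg
ACGTG or its reverse complement was found 5 times in the Ldha window, counting both strands and overlaps, and 2 times in that of Slc16a3. Of the windows at the 2 annotated Ldha starts, only 1, the printed one, held these letters. In the windows of Ldhb and Mdh2 it was found 0 times. A second set of letters, GCGTG or its reverse complement CACGC, went the other way. In the printed bases it was found 1 time in Ldhb, 1 time in Mdh2 and 0 times in Ldha and Slc16a3.

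Among all members, promoters of 37 were in the RefSeq table, and Slc2a3 and Idh3a were not matched. Over windows from 250 bases before to 50 bases after a start, 20 of the 37 members (54.1%) had ACGTG on either strand in at least 1 window. The same was true of 29.0% of the 10638 tested genes with a promoter and of 21.8% of all 27025 genes in the table. By role, the letters stood at the promoters of 6 of 10 upper glycolysis genes, 4 of 6 lower glycolysis genes, 3 of 4 lactate genes, 3 of 6 pyruvate dehydrogenase genes and 3 of 10 citric acid cycle genes. The median GC content of the windows was 61.0% for the members and 60.7% for the tested genes. The second set of letters, GCGTG or CACGC, was held by 22 of the 37 members (59.5%) and by 55.9% of the tested genes. These matches describe the letters in the windows and are no evidence that a factor was bound there.

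The 6 libraries held between 15907491 and 16282929 estimated counts, and between 15685 and 16309 genes had a count. Values per library are given as TMM-normalised CPM (counts scaled to a fixed library total), in the order of replicates 1, 2 and 3, and levels of different genes are compared only in TPM, which is scaled for transcript length. Ybx1 had 1021, 528 and 1220 CPM in the WT libraries and 83.1, 117 and 147 CPM in the cKO libraries. The genotypes did not overlap, and the library labelled WT replicate 2 lay between the others. The log2 fold change of Ybx1, cKO over WT, was -3.00 (SE 0.33), and in edgeR's quasi-likelihood test its p-value was 0.128 once adjusted by Benjamini-Hochberg for the 13340 genes tested. Without WT replicate 2 it was -3.28 and passed the threshold of 0.05. In cKO replicate 3, 10 markers of meninges and skin summed to 589 TPM, against 7.31 to 14.0 TPM in the other 5 libraries, and the keratin Krt5 had 142 TPM against at most 0.07. Of the genes that mark the dorsal forebrain, Emx1 had 182 to 244 TPM and Lhx2 had 579 to 782 TPM over the 6 libraries. The labels give replicate numbers, but they do not say that the libraries came from separate litters, so p-values measure the spread between these samples. In bulk tissue, fewer cells of a type and less RNA per cell cannot be told apart.

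Levels differed far more between the steps of the pathway than between genotypes. Summed over the members of each step, TPM was highest for GAPDH, at 4554 ± 403 in WT and 4890 ± 602 in cKO (SD, n = 3 each). Pyruvate kinase (Pkm) followed with 1422 ± 19.8 TPM in WT, then lactate dehydrogenase with 1084 ± 39.1 and enolase with 1022 ± 21.0. The WT ranges of lactate dehydrogenase and enolase overlapped, and their order was the reverse in cKO replicates 2 and 3. Below them came Pgk1 with 566 ± 62.1 TPM, aldolase with 520 ± 19.6, Pgam1 with 497 ± 30.5 and Tpi1 with 434 ± 30.7, and in this order Pgk1, aldolase and Pgam1 each overlapped the next in WT, whereas Tpi1 lay below. The lowest levels were found at the start and the end of the pathway, and these steps did not overlap each other in WT. Gpi1 had 210.1 ± 2.78 TPM, phosphofructokinase 159 ± 11.5, glucose uptake 87.2 ± 15.6, hexokinase 50.8 ± 6.46 and lactate transport 34.1 ± 3.08. The 39 members together took 1.22% to 1.47% of all TPM in a library, and Gapdh alone was 33.4% to 36.7% of the members' sum. The glycolysis enzymes among the members summed to between 4.82 and 5.89 times the citric acid cycle genes among the members. Gapdh, Pgk1, Pgam1, Eno1, Aldoa, Ldha and Tpi1 have processed pseudogenes between which reads could be split, so their levels are uncertain to that extent.

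**Figure D1:**
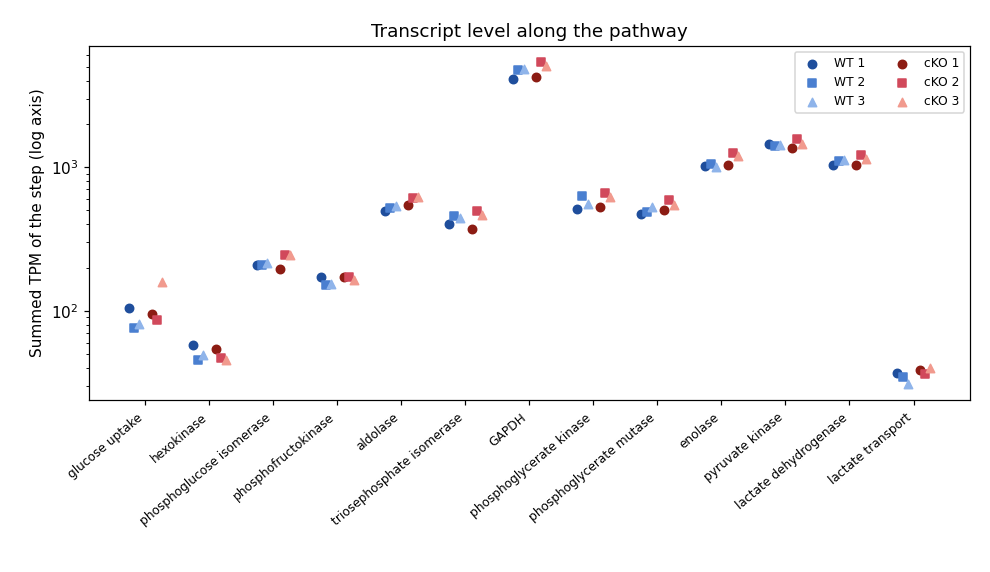
Summed TPM of the members of each step from glucose uptake to lactate transport, on a log axis. Each library is 1 point (WT in blue, cKO in red, the marker shape giving the replicate number). GAPDH lay between 4090 and 5405 TPM in all 6 libraries, and cKO replicate 3 stood apart at glucose uptake with 158 TPM.

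The comparison of genotypes asked whether any member differed in cKO. In the edgeR test, 0 of the 39 members had an adjusted p-value under 0.05, where the background was 0% of all genes tested, and every adjusted p-value was 0.99995. At an unadjusted p-value under 0.05 there were also 0 of 39, against 3.57% of all genes. The other tools gave 0 members at the adjusted threshold too, while limma-voom had 1 member and limma on log2(TPM + 1) had 2 at the unadjusted one. Fold changes were small and mostly above 0. Of the 39 members, 32 (82.1%) had a positive log2 fold change, compared with 50.8% of all genes, and the median was 0.083, compared with 0.0019. The 7 negative ones were Hk1, Hk2, Pfkp, Eno2, Ldha, Cs and Ogdh, of which Hk1 and Ldha turned positive, at 0.0047 and 0.0086, with upper-quartile factors. The members ranged from -0.15 for Hk2 to 1.05 for Slc2a3. Members of a pathway share libraries and are not independent, so these counts describe the list and are no test of it.

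The cKO libraries all lay above the WT libraries for 3 members (7.69%), Ldhb, Suclg1 and Mdh2, against 4.21% of all genes. The reverse order held for 0 members, against 4.83% of all genes. Single libraries moved these counts. Without cKO replicate 1, 7 members had an unadjusted p-value under 0.05, all higher in cKO (Aldoa, Pdk1, Pfkl, Sucla2, Gpi1, Slc2a3 and Eno1), where 4.23% of all genes were higher at that threshold. In the same libraries, 15 members lay apart with cKO higher and 1 with cKO lower, against 12.6% and 12.5% of all genes. With each other library left out, 0 to 2 members had an unadjusted p-value under 0.05. The members apart with cKO higher were then 7 without WT replicate 1 (9.65% of all genes), 6 without WT replicate 2 (9.56%), 4 without WT replicate 3 (6.86%), 3 without cKO replicate 2 (7.99%) and 6 without cKO replicate 3 (7.68%). Without both WT replicate 2 and cKO replicate 3, 0 members had an unadjusted p-value under 0.05, 10 lay apart with cKO higher and 1 with cKO lower, against 14% and 13% of all genes. The member median was 0.10 in that fit and lay between 0.036 and 0.15 when single libraries were left out.

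**Figure D2:**
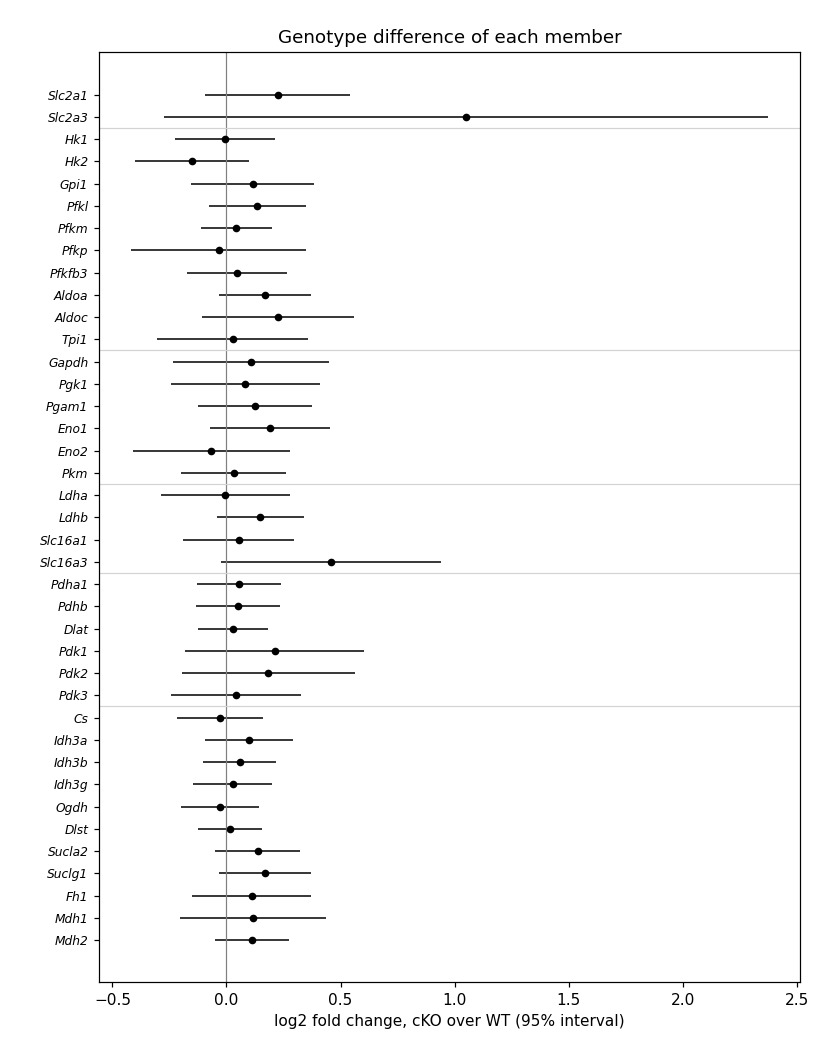
Log2 fold change of each member in cKO over WT, with its 95% interval from the edgeR fit, and grey lines between the roles. The interval of every member includes 0, and that of Slc2a3 is the widest, from -0.27 to 2.38.

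Of the transporters that bring glucose into cells, Slc2a1 encodes GLUT1, the form of the blood-brain barrier and most dividing cells, and Slc2a3 encodes GLUT3, the neuronal form. Slc2a1 had 93.4, 73.2 and 78.4 CPM in WT and 84.9, 86.6 and 115 CPM in cKO. The cKO replicate 3 library was the highest and the genotypes overlapped. Its log2 fold change was 0.22 (SE 0.14, 95% interval -0.09 to 0.54), and this was 0.069 without cKO replicate 3 and -0.0030 without both cKO replicate 3 and WT replicate 2. Slc2a3 had 25.1, 21.5 and 17.4 CPM in WT and 24.8, 16.2 and 91.6 CPM in cKO. A single library, cKO replicate 3, was far above the other 5, which overlapped. The log2 fold change of 1.05 (SE 0.57) was -0.058 without it. This library was also the one with keratin and collagen transcripts, and their part in the Slc2a3 value was not tested. Endothelial markers summed to 87.4, 60.3 and 63.4 TPM in WT and 71.3, 65.1 and 87.3 TPM in cKO. The highest sums were in WT replicate 1 and cKO replicate 3, which were also the 2 highest libraries of Slc2a1. The part of vessel cells in the Slc2a1 value was not tested.

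The enzymes of upper glycolysis prepare glucose and split it. Hexokinase traps glucose by phosphorylation, and its major form Hk1 had 56.5, 51.3 and 53.6 CPM in WT and 60.3, 51.4 and 48.7 CPM in cKO. The genotypes overlapped fully, with a log2 fold change of -0.0080 (SE 0.09). Hk2, the inducible form, had 41.7 to 55.7 CPM over all libraries and the lowest fold change of the members, -0.15 (SE 0.11). Phosphofructokinase is the committed step of glycolysis, and its liver-type subunit Pfkl had 123, 127 and 126 CPM in WT and 121, 154 and 138 CPM in cKO. Replicates 2 and 3 of cKO were above all WT libraries, and cKO replicate 1 was the lowest of the 6. The log2 fold change was 0.13 (SE 0.09). The muscle-type subunit Pfkm ranged from 85.2 to 95.7 CPM, the platelet-type subunit Pfkp from 13.8 to 20.04 CPM, and Pfkfb3, which makes the activator fructose 2,6-bisphosphate, from 64.1 to 78.4 CPM, each with a log2 fold change between -0.034 and 0.046. Phosphoglucose isomerase, Gpi1, ranged from 233 to 314 CPM, with a log2 fold change of 0.12 (SE 0.12).

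Aldolase cleaves the sugar into 2 triose phosphates. Aldoa, the ubiquitous form, had 193, 194 and 209 CPM in WT and 198, 239 and 232 CPM in cKO. Its cKO replicates 2 and 3 were above every WT library, and the log2 fold change was 0.17 (SE 0.09, 95% interval -0.03 to 0.37). Aldoc, the brain form and a marker of radial glia and astrocytes, had 168, 247 and 223 CPM in WT and 219.7, 263 and 263 CPM in cKO. The library of WT replicate 1 was well below the other 5, and without it the log2 fold change of 0.23 (SE 0.14) was 0.086. Summed over both genes, aldolase TPM was 499, 523 and 538 in WT and 546, 612 and 624 in cKO. The genotypes did not overlap in this sum, with cKO higher, which was the case for 1 of the 13 steps from glucose uptake to lactate transport. Among single genes this order held for 4.21% of all genes tested. Taken alone, Aldoa and Aldoc each overlapped between the genotypes. Triosephosphate isomerase, Tpi1, which interconverts the 2 trioses, ranged from 224 to 323 CPM, with a log2 fold change of 0.027 (SE 0.14).

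Lower glycolysis makes ATP and pyruvate, and its genes included the most abundant of the pathway. Gapdh, which oxidises glyceraldehyde phosphate and is often used as a reference gene, had 2012, 2553 and 2539 CPM in WT and 2114, 2953 and 2588 CPM in cKO. Replicate 1 was the lowest of each genotype, and the genotypes overlapped. The log2 fold change was 0.11 (SE 0.15, 95% interval -0.23 to 0.45) and turned to -0.012 without cKO replicate 2. Eno1, the ubiquitous enolase, had 675, 764 and 718 CPM in WT and 698, 922 and 842 CPM in cKO. As for Aldoa, cKO replicates 2 and 3 were above all WT libraries, and here cKO replicate 1 was below 2 of the 3. Its log2 fold change was 0.19 (SE 0.11). Pgk1, the first ATP-yielding kinase, ranged from 359 to 503 CPM, the mutase Pgam1 from 333 to 451 CPM and the pyruvate kinase Pkm from 1332 to 1669 CPM, with log2 fold changes of 0.083, 0.13 and 0.031. The splice forms of Pkm are not separated in a table by gene. Eno2, the enolase of mature neurons, ranged from 13.6 to 18.8 CPM with a log2 fold change of -0.067 (SE 0.15).

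Lactate dehydrogenase interconverts pyruvate and lactate, and the A subunit is known to favour lactate production and the B subunit the reverse. Ldha had 409, 477 and 473 CPM in WT and 378, 509.6 and 466 CPM in cKO. The genotypes overlapped fully, with a log2 fold change of -0.0049 (SE 0.12, 95% interval -0.29 to 0.28). Ldhb had 169.9, 192 and 191 CPM in WT and 197, 221 and 194 CPM in cKO. All cKO libraries were above all WT libraries, by a margin between WT replicate 2 and cKO replicate 3 that was smaller than the SD within either genotype (12.3 and 14.9 CPM). Its log2 fold change was 0.15 (SE 0.08, 95% interval -0.04 to 0.34, unadjusted p = 0.112 in the edgeR test). Slc16a1 encodes MCT1, a widely expressed lactate carrier, and Slc16a3 encodes MCT4, an exporter of highly glycolytic cells. Slc16a1 had 44.1, 56.1 and 46.8 CPM in WT and 50.5, 47.7 and 54.4 CPM in cKO. No difference larger than the spread was found for it (log2 fold change 0.053, SE 0.11).

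Slc16a3 had 13.1, 7.75 and 7.81 CPM in WT and 12.2, 14.4 and 12.8 CPM in cKO. WT replicate 1 lay among the cKO libraries, and WT replicates 2 and 3 were lower. The log2 fold change was 0.46 (SE 0.21, 95% interval -0.02 to 0.94), with the lowest unadjusted p-value of the members, 0.0601, which was 0.99995 after adjustment in the edgeR test. Without WT replicate 1 it was 0.76, with an unadjusted p of 0.000716 and an adjusted p of 0.979 in the same edgeR test, and over all 16 alternatives it lay between 0.33 and 0.81. The promoter of this gene, printed above, held ACGTG in a pair of places close to the start. Hypoxia-inducible transcripts, a list of 15 genes outside the members, summed to 623, 532 and 517 TPM in WT and 675, 576 and 584 TPM in cKO. In this sum WT replicate 1 lay among the cKO libraries and above WT replicates 2 and 3. The highest sum was in cKO replicate 1, followed by WT replicate 1. For Slc16a3, in contrast, cKO replicate 1 was the lowest cKO library. Single genes did not all follow, as WT replicate 1 was the lowest WT library for Bnip3, Egln3 and Bhlhe40. It was the highest WT library for the other listed genes except Ankrd37. Whether the Slc16a3 level was linked to these transcripts or to the promoter letters was not tested. Of the 14 hypoxia-inducible genes tested, 1, the collagen hydroxylase P4ha2, was higher at an unadjusted p-value under 0.05, against 1.75% of all genes. After adjustment 0 passed. P4ha2 had 2.57, 2.32 and 2.26 TPM in WT and 3.34, 2.74 and 4.13 TPM in cKO. The highest value was in cKO replicate 3, the library with keratin and collagen transcripts, whose part in it was not tested.

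Pyruvate dehydrogenase makes acetyl-CoA from pyruvate, and its kinases switch it off. The subunits of the complex differed little between libraries, with Pdha1 between 107 and 129 CPM, Pdhb between 92.5 and 107 CPM and Dlat between 53.0 and 57.2 CPM. Their log2 fold changes were 0.054, 0.052 and 0.029. The kinase with the highest TPM, Pdk3, had 29.8, 37.2 and 34.8 CPM in WT and 29.95, 37.6 and 37.2 CPM in cKO, and replicate 1 was the lowest of each genotype (log2 fold change 0.042, SE 0.12). Pdk1, the kinase induced by hypoxia-inducible factors, had 40.2, 51.1 and 50.9 CPM in WT and 41.3, 59.3 and 63.9 CPM in cKO. Here again replicate 1 of each genotype was the lowest, and cKO replicates 2 and 3 were the highest. The log2 fold change of Pdk1 was 0.21 (SE 0.17), 0.39 without cKO replicate 1 and 0.083 without cKO replicate 3. Pdk2 ranged from 23.8 to 36.3 CPM, with replicate 1 the highest of each genotype and a log2 fold change of 0.18 (SE 0.16).

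The citric acid cycle oxidises acetyl-CoA. Citrate synthase (Cs), which starts the cycle, ranged from 323 to 379 CPM, and the subunits of the NAD-linked isocitrate dehydrogenase ranged from 63.4 to 78.2 CPM for Idh3a, 92.7 to 105 CPM for Idh3b and 82.9 to 96.3 CPM for Idh3g. Of the oxoglutarate dehydrogenase subunits, Ogdh lay between 136 and 158 CPM and Dlst between 162 and 171 CPM. Their log2 fold changes were between -0.028 and 0.099. Suclg1, the shared subunit of the succinyl-CoA ligases, had 47.0, 57.6 and 53.4 CPM in WT and 58.3, 61.3 and 57.9 CPM in cKO. All cKO libraries were above all WT libraries, with WT replicate 2 just below cKO replicate 3. Its log2 fold change was 0.17 (SE 0.09, 95% interval -0.03 to 0.37, unadjusted p = 0.0921 in the edgeR test). Sucla2, the ATP-forming partner subunit, ranged from 56.8 to 69.3 CPM with 0.14 (SE 0.08), and fumarase (Fh1) from 40.8 to 54.6 CPM with 0.11 (SE 0.11).

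Malate dehydrogenase closes the cycle in mitochondria as Mdh2, and its cytosolic form Mdh1 serves the malate-aspartate shuttle. Mdh2 had 193, 205 and 205 CPM in WT and 209, 230.3 and 212 CPM in cKO. The genotypes did not overlap, and the log2 fold change was 0.11 (SE 0.07, 95% interval -0.05 to 0.27, unadjusted p = 0.149 in the edgeR test). Mdh1 ranged from 134 CPM in WT replicate 1 to 198 CPM, with a log2 fold change of 0.12 (SE 0.14) that turned to -0.034 without WT replicate 1. The median log2 fold change was 0.099 over the 11 citric acid cycle genes, 0.095 over the 6 of lower glycolysis, 0.044 over the 10 of upper glycolysis, 0.10 over the 4 lactate genes and 0.053 over the 6 pyruvate dehydrogenase genes.

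**Figure D3:**
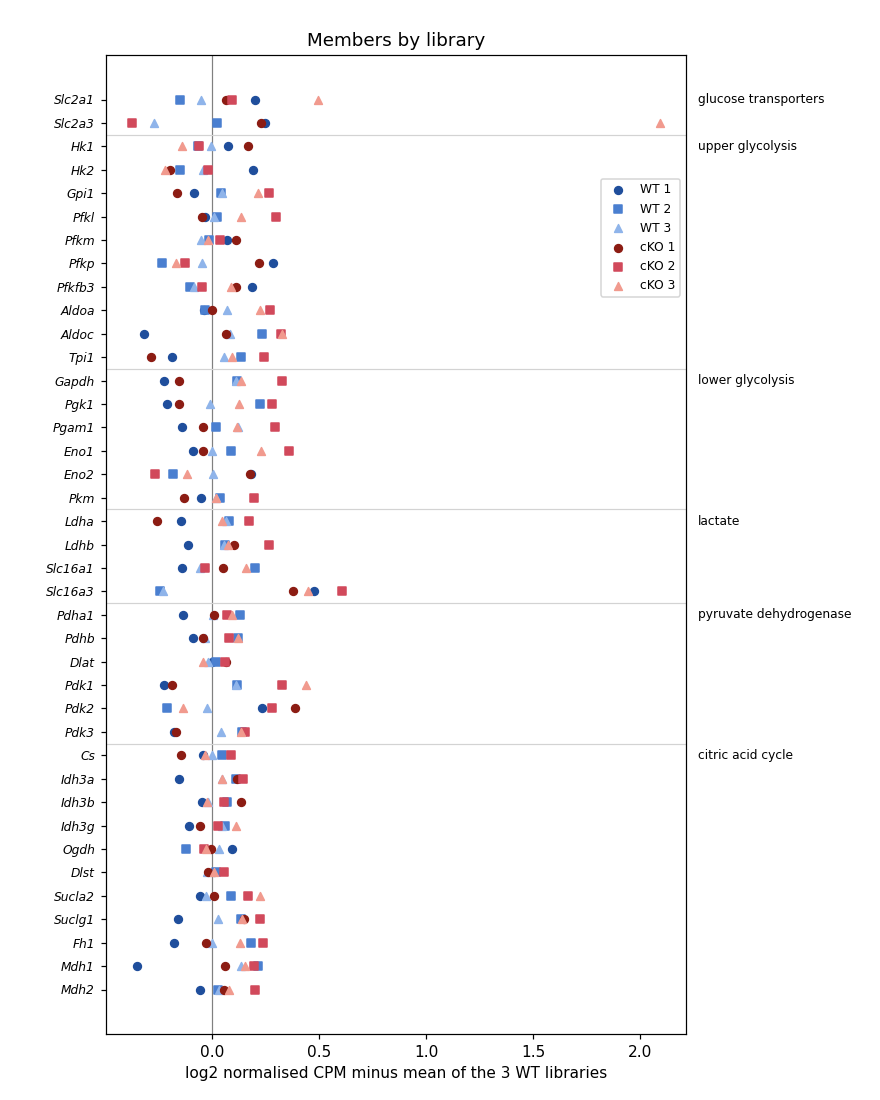
Log2 normalised CPM of each member in each library minus the mean of the 3 WT libraries (pseudocount 0.5), with 1 point per library and grey lines between the roles. Slc2a3 in cKO replicate 3 stood at 2.09, and for Gapdh, Pgk1 and Ldha the dark points of WT replicate 1 and cKO replicate 1 lay to the left of all others.

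Where a step has several isozymes, TPM was used to ask which the E13.5 cortex used. Shares were taken over the members of a step only, so further isozymes were left out. Of the summed TPM of Slc2a1 and Slc2a3, Slc2a1 made up 86.1 ± 1.73% in WT and 80.4 ± 12.02% in cKO (SD, n = 3 each). In cKO replicate 3 it had 66.8%. Outside the members, Slc2a8 and Slc2a4 had WT means of 9.62 and 9.02 TPM, against 12.1 TPM for Slc2a3. Hk1 made up 61.4 ± 1.71% of Hk1 and Hk2 in WT and 63.3 ± 3.59% in cKO. Pfkl and Pfkm were nearly equal, at 47.7 ± 2.16% and 45 ± 0.94% in WT, so that no single subunit led in every library, and Pfkp had 7.35 ± 1.56%. Aldoa held 64.5 ± 4.35% and Aldoc the rest. Of Eno1 and Eno2, Eno1 made up 98.5 ± 0.29% in WT and 98.8 ± 0.36% in cKO. Eno3, outside the members, had a WT mean of 12.6 TPM, against 15.1 TPM for Eno2. Ldha held 65.0 ± 0.45% of lactate dehydrogenase in WT and 62.4 ± 2.91% in cKO, where replicate 1 had 59.1%. Slc16a1 held 72.8 ± 7.98% of the monocarboxylate pair in WT and 67.3 ± 2.85% in cKO. Among the kinases, Pdk3 had 44.4 ± 3.87%, Pdk2 32.8 ± 6.20% and Pdk1 22.7 ± 2.54% in WT. Mdh2 held 66.2 ± 3.88% of the malate dehydrogenases, and Idh3g 43.3 ± 0.69% of the isocitrate dehydrogenase subunits.

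No difference between genotypes was found for the 10 leading shares. Exact two-sided permutation tests over the 10 splits of 3 against 3 libraries, whose smallest possible p is 0.1, gave p between 0.2 (Ldha) and 1 (Mdh2), and 0.8 to 1 after Benjamini-Hochberg adjustment over the 10 families. The WT and cKO libraries overlapped for every one of these shares. The share of Slc2a1 was 5.72 percentage points lower in the cKO mean and 1.08 points higher without cKO replicate 3.

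**Figure D4:**
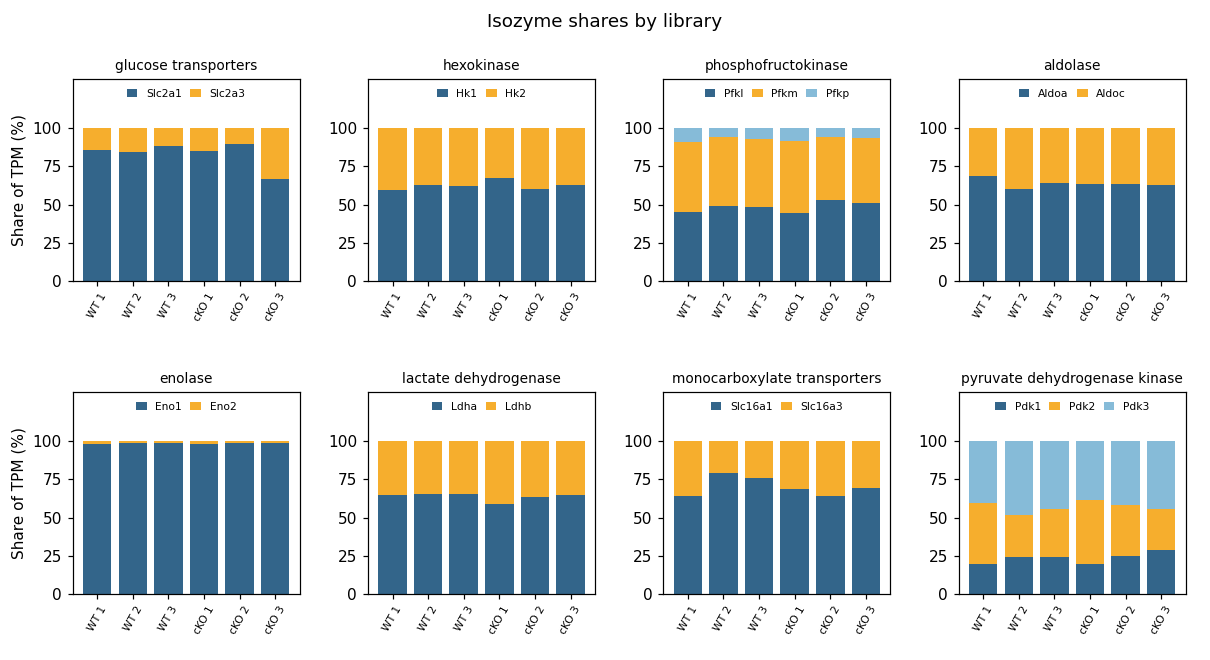
Share of each isozyme in the summed TPM of the members of a step, in percent, in each of the 6 libraries. Shown are 8 steps with more than 1 member. The share of Eno1 stayed between 98.2% and 99.1%, while that of Slc2a3 reached 33.2% in cKO replicate 3.

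The libraries differed among themselves along a line that was not the genotype. This pattern was chosen after the values were seen. For 17 of the 39 members the lowest 2 of the 6 libraries were WT replicate 1 and cKO replicate 1, against 20.0% of all genes tested. They included 5 of the 6 lower glycolysis genes (Gapdh, Pgk1, Pgam1, Eno1 and Pkm), with Ldha, Gpi1, Tpi1, Aldoc and Pfkl. For 5 members (Hk1, Pfkm, Pfkp, Pfkfb3 and Eno2) these libraries were instead the highest 2, against 20.0% of all genes. Of these, Eno2 is known as the enolase of neurons and Hk1 as the main hexokinase of brain, whereas Pfkm and Pfkp are the muscle-type and platelet-type subunits. The highest of the 6 libraries was cKO replicate 2 for 19 members (48.7%), against 18.0% of all genes. Relative to the WT mean, the median of the lower glycolysis genes was -0.11, 0.063 and 0.0094 log2 units in the WT libraries and -0.087, 0.29 and 0.12 in the cKO libraries.

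The sums of cell type marker lists moved with the same libraries. The 10 radial glia markers, all detected in every library, summed to 2479, 3244 and 3398 TPM in WT and 2404, 3330 and 3283 TPM in cKO. The 10 neuronal markers summed to 4506, 3538 and 3986 TPM in WT and 4772, 3591 and 3614 TPM in cKO. Replicate 1 of each genotype thus had the lowest radial glia sum and the highest neuronal sum. Fabp7 and Vim were the largest terms of the radial glia sum. Nes, Vim, Hes1, Fabp7, Slc1a3 and Hopx were lowest in replicate 1 of each genotype, whereas Pax6, Sox2, Hes5 and Prom1 were not. Sox2 had 160, 145 and 162 TPM in WT and 156, 195 and 152 TPM in cKO. Of the neuronal markers, Stmn2 and Nefl were not highest in replicate 1 of each genotype. The erythroid sum was also highest in replicate 1, at 6240 TPM in WT and 7741 TPM in cKO, against 4302 to 5468 TPM in the other libraries. Hba-a1, Hba-a2, Hbb-bt and Hbb-bs followed this sum. Hbb-bh1 and Bpgm were instead lowest in replicate 1 of each genotype, and Hbb-y and Hba-x were highest in cKO replicate 2. The part of these marker differences in the levels of the members was not tested. Without both WT replicate 1 and cKO replicate 1, a setting chosen after the values were seen, 9 members were higher at an unadjusted p-value under 0.05 in the edgeR test (Slc2a1, Slc16a3, Aldoa, Aldoc, Pfkl, Gpi1, Eno1, Pdk1 and Sucla2), as were 3.6% of all genes. In that fit 0 members passed after adjustment, the lowest adjusted p-value of these 9 being 0.675, and 19 members lay apart with cKO higher and 1 with cKO lower, against 18.5% and 19.4% of all genes. The series description speaks of 3 sequencing batches without naming their libraries, so whether the replicate 1 libraries shared a batch or litter is unknown.

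**Figure D5:**
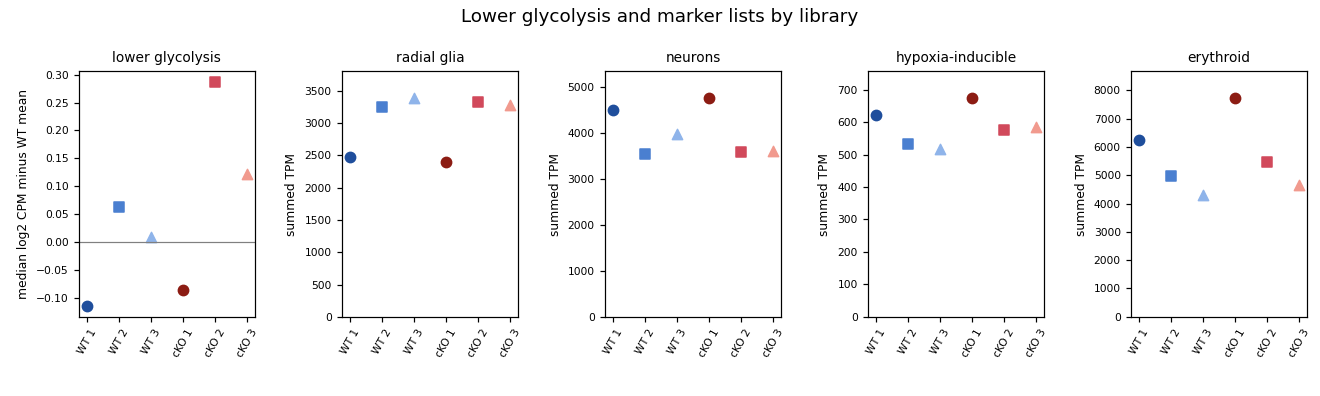
Median log2 difference of the 6 lower glycolysis genes from the WT mean (left) and summed TPM of 4 marker lists, with 1 point per library. WT replicate 1 and cKO replicate 1 are lowest for lower glycolysis and the radial glia sum and highest for the neuron, hypoxia-inducible and erythroid sums.

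Other genes of glucose use were followed from a list of 77, of which 71 were in the table and 63 were tested. This list held the pentose phosphate pathway, the malate-aspartate shuttle, mitochondrial pyruvate carriers and further isozymes. After adjustment 0 of 63 passed in the edgeR test. The median log2 fold change was 0.015, and 33 values (52.4%) were positive, compared with 50.8% of all genes. At an unadjusted p-value under 0.05 in that test there was 1 higher gene and 1 lower gene, against 1.75% and 1.81% of all genes. The higher one, Mpc2, is a subunit of the carrier that brings pyruvate into mitochondria. It had 14.6, 14.99 and 15.7 CPM in WT and 17.7, 17.3 and 17.6 CPM in cKO, and the genotypes did not overlap (log2 fold change 0.22, SE 0.09, unadjusted p = 0.0367 in the edgeR test). Its partner Mpc1 had a log2 fold change of 0.13 (SE 0.09), and its genotypes overlapped. The lower one, Me3, a mitochondrial malic enzyme, had 7.73, 5.82 and 6.56 CPM in WT and 4.80, 4.52 and 5.55 CPM in cKO (log2 fold change -0.43, SE 0.17, unadjusted p = 0.0321 in the edgeR test).

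The remaining genes of that list without overlap moved by less. In cKO all libraries were above WT for Rpia, of the pentose phosphate pathway (0.16, SE 0.09 on the log2 scale), and for Bsg, the chaperone of monocarboxylate transporters, with 167, 163 and 165 CPM in WT and 180.2, 177 and 174 CPM in cKO. They were below WT for G6pdx, the entry enzyme of the pentose phosphate pathway (log2 fold change -0.10, SE 0.06), and for Pdhx, the binding protein of the pyruvate dehydrogenase complex (-0.12, SE 0.08). The genotypes were thus apart for 3 of 63 genes in each direction, close to the shares of all genes given above.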

How the data were processed

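Cortical RNA of E13.5 embryos was sequenced in 3 WT and 3 cKO libraries, and the titles of the samples gave the groups. The authors extracted RNA with Trizol and made mRNA libraries. The submitters' processing notes name HISAT2 2.2.1, Bowtie2 2.4.5 and RSEM 1.3.1 and the builds GRCm38 and mm10, without giving each a role. The gene annotation and the use of strand are not given in the sources used here, so overlapping, antisense and near-identical genes are uncertain. The authors deposited 1 table of 17348 genes. Estimated counts, 10.9% of them with a fractional part, were deposited as unscaled values. TPM, deposited as length-scaled shares with 1 fixed sum per library, was used for levels and isozyme shares. The FPKM values deposited by the authors, scaled for length and depth, were not used in any test, and 6 columns of group averages were not used.

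Estimated counts were rounded to whole numbers, filtered with filterByExpr (minimum count 10, minimum total count 15) and scaled with TMM factors of 0.987 to 1.03. Genotype was the only term of edgeR's quasi-likelihood fit (edgeR 4.0.16, R 4.3.3), with Benjamini-Hochberg adjustment over 13340 genes and a threshold of 0.05. The common dispersion was 0.0169. SE is the log2 fold change divided by the square root of F, and 95% intervals use a t distribution with 7.92 degrees of freedom. The test was tested on simulated data. Isozyme shares were compared by exact permutation over 10 splits.

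The members and the other lists, marker lists included, were chosen with earlier results of these data known. All members are named. Values in every library are given for the leading isozyme of each step, members without overlap, the 5 largest fold changes and Gapdh, and for at most 10 other pathway genes. Alternatives were DESeq2 1.42.0, the RLE or the upper-quartile scaling in edgeR, a filter of 10 or more counts per library or none, limma-voom and limma on log2(TPM + 1) (limma 3.58.1), the replicate number as a block, each library left out, and both WT replicate 2 and cKO replicate 3 left out. Added after the values were seen were leaving out both replicate 1 libraries and recounting libraries that do not overlap. Promoters are RefSeq windows of GRCm38.p6.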

Additional observations from a re-analysis of the deposited data

How the results depend on the processing

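No member passed an adjusted p-value of 0.05 in edgeR or under any of the 16 alternatives, and 19 of the 39 kept their direction in all of them. Unadjusted higher members, 0 of 39 in the edgeR test, were 1 with limma-voom (1.52% of all genes), 2 with limma on log2(TPM + 1) (1.85%), 7 with the replicate number as a block (3.57%), 9 without both replicate 1 libraries (3.6%), and 0 to 7 with 1 library left out (0.895% to 4.23%). Members without overlap, 3 higher and 0 lower, were 1 higher with no filter (4.05% of all genes), 10 and 1 without both WT replicate 2 and cKO replicate 3 (14% and 13%), 19 and 1 without both replicate 1 libraries (18.5% and 19.4%), and 3 to 15 higher and 0 to 1 lower with 1 library left out (6.86% to 12.6% and 6.89% to 12.5%).

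Over all genes, adjusted calls (0 higher, 0 lower) were 2 and 3 with DESeq2, 1 and 1 with the replicate block, 1 and 1 without both WT replicate 2 and cKO replicate 3, and 0 to 1 in each direction with 1 library left out. Unadjusted calls (234 and 242) were 390 higher with no filter, 476 and 614 with the replicate block, 105 and 141 without both WT replicate 2 and cKO replicate 3, 481 and 499 without both replicate 1 libraries, and 121 to 571 and 118 to 482 with 1 library left out. Ybx1 passed with DESeq2 (-3.00), with the block (-2.95), and without both WT replicate 2 and cKO replicate 3 (-3.49). It ranged from -3.49 to -2.72 over the fits with 1 or 2 libraries left out. Deviations of same-numbered libraries correlated at 0.45, 0.32 and -0.0056 for replicates 1, 2 and 3 over all genes tested. Over the members the values were 0.42, 0.20 and -0.44. Whether the numbers mark a shared batch or litter is unknown, so they were not taken as pairs in the main fit and served as a block in 1 alternative.

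Some log2 fold changes turned sign. With upper-quartile factors these were Hk1 (0.0047) and Ldha (0.0086). With 1 library, both WT replicate 2 and cKO replicate 3, or both replicate 1 libraries left out, the members that turned had ranges of -0.0030 to 0.42 for Slc2a1, -0.058 to 1.49 for Slc2a3, -0.095 to 0.054 for Hk1, -0.16 to 0.13 for Pfkp, -0.024 to 0.15 for Pfkfb3, -0.091 to 0.17 for Tpi1, -0.012 to 0.23 for Gapdh, -0.020 to 0.20 for Pgk1, -0.20 to 0.037 for Eno2, -0.058 to 0.11 for Pkm, -0.10 to 0.12 for Ldha, -0.012 to 0.16 for Slc16a1, -0.0073 to 0.12 for Pdha1, -0.039 to 0.15 for Pdk3, -0.090 to 0.035 for Cs, -0.0015 to 0.13 for Idh3b, -0.021 to 0.075 for Idh3g, -0.088 to 0.022 for Ogdh, -0.0066 to 0.043 for Dlst and -0.034 to 0.23 for Mdh1. Over the same settings the differences in isozyme share that turned sign (cKO minus WT, percentage points) ranged from -10.3 to 1.08 for Slc2a1, -0.915 to 3.63 for Hk1, -3.27 to 1.07 for Aldoa, -2.20 to 0.484 for Idh3g and -1.80 to 1.85 for Mdh2. The cause was not tested.

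With 3 libraries per genotype, the 95% interval of a member reached as far as 2.38 log2 units for Slc2a3. The exact tests of shares could not go below 0.1.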
